A study of Homo sapiens with 12 samples.

Results

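The genes described here are 47 interferon-stimulated genes (ISGs), chosen by symbol from a list of genes known to respond to interferon, among the 19659 genes of the deposited mRNA table. All 47 had a row there. Their level was the sum of FPKM (fragment counts divided by transcript length and by library size) over the transcripts of each gene. The cells were labelled HEL, an established human erythroleukaemia line. The treated group had 40 µg/ml DMAG, a methylated ellagic acid glucoside from the plant Sanguisorba officinalis, for 3 days (n = 3 RNA-Seq libraries). It was set against cells labelled Control, with no dose or day recorded (n = 3 RNA-Seq libraries). The series asked which transcripts differ while the compound slows growth and megakaryocytic features appear. Whether the controls received a vehicle is not given in the sources used here, and the labels do not say whether the 3 libraries of a group came from separate cultures. Each p-value therefore measures the spread between these libraries, which may be technical.

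Interferons are secreted antiviral proteins. Type I interferons bind the receptor IFNAR, whose kinases JAK1 and TYK2 activate the complex ISGF3. This complex holds STAT2 and IRF9 and binds interferon-stimulated response elements (ISREs) in front of ISGs. Interferon gamma acts on genes with gamma-activated sites (GAS). The induced proteins restrict viruses at many steps, and several of them, such as USP18, act back on the pathway. In myeloid cells a low level of this programme is present without infection, and some of its genes also change during differentiation.

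The 6 libraries had totals of 328400 to 332900 FPKM with DMAG and 348900 to 357800 FPKM in controls. The absolute depth is unknown. Relative depths read from the smallest FPKM values of single-transcript genes were 0.974 to 1.10 with DMAG and 1 to 1.06 in controls, on a scale where control replicate 1 is 1, each from a ratio shared within 1% by 11 to 21 of 90 to 111 genes. Markers known of HEL cells were at or near 0, since 12 of 14 erythroid and megakaryocytic markers stayed under 1 FPKM in all 6 libraries. Their summed level was 0.803, 0.636 and 7.12 FPKM in DMAG replicates 1, 2 and 3 and 0.554 to 0.938 FPKM in controls. In DMAG replicate 3, ALAS2 had 4.04 FPKM and HBG2 had 1.69 FPKM, and both were listed at 0 in DMAG replicates 1 and 2. DMAG replicate 3 also stood apart by its adult globin transcripts, with 1941 FPKM over 4 genes. DMAG replicates 1 and 2 had 0.250 and 0 FPKM, and controls 0.0649 to 0.237 FPKM. Counts of ISGs are therefore given with and without that library.

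Of the 47 ISGs, 33 reached a mean of 0.5 FPKM over the 6 libraries and were tested. With DMAG, 13 of the 33 rose and 6 fell (limma on log2(FPKM + 1), adjusted p under 0.05), which is 39.4% and 18.2% of those tested. Among all 10394 genes tested, 22.4% rose and 26.1% fell. No test was made of the difference in shares, since the gene list was chosen with earlier results known. The 13 include MX2, which reached the level tested only through its DMAG values. With that level set to 1 FPKM, 12 ISGs rose and 6 fell of 31, and 2170 rose and 2655 fell of all 9883 genes. With each library scaled to the same total, 16 ISGs rose and 3 fell, and among all genes 3221 rose and 1862 fell, against 2333 and 2717 without that scaling. Without DMAG replicate 3, 10 ISGs rose and 5 fell of 32 tested, and 2029 rose and 2393 fell of all 10357 genes tested. The median log2 change over the 33 was 0.20, with a range of -1.04 to 1.59, and over all genes tested it was -0.01. The values of the 3 DMAG libraries lay above those of the 3 control libraries in 17 of the 33 ISGs and below them in 7, where the background was 27.9% and 31.6% of all genes. Calls for 12 ISGs held whichever library was left out. Of these, BST2, HERC5, HERC6, IFI30, IFI6, IFIT2, IFITM1, SP100 and STAT2 rose and IFI35, TRIM25 and USP18 fell. With only the most abundant transcript of each gene, the calls of HERC6, IFIT2, SP100 and STAT2 were lost.

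**Figure D1:**
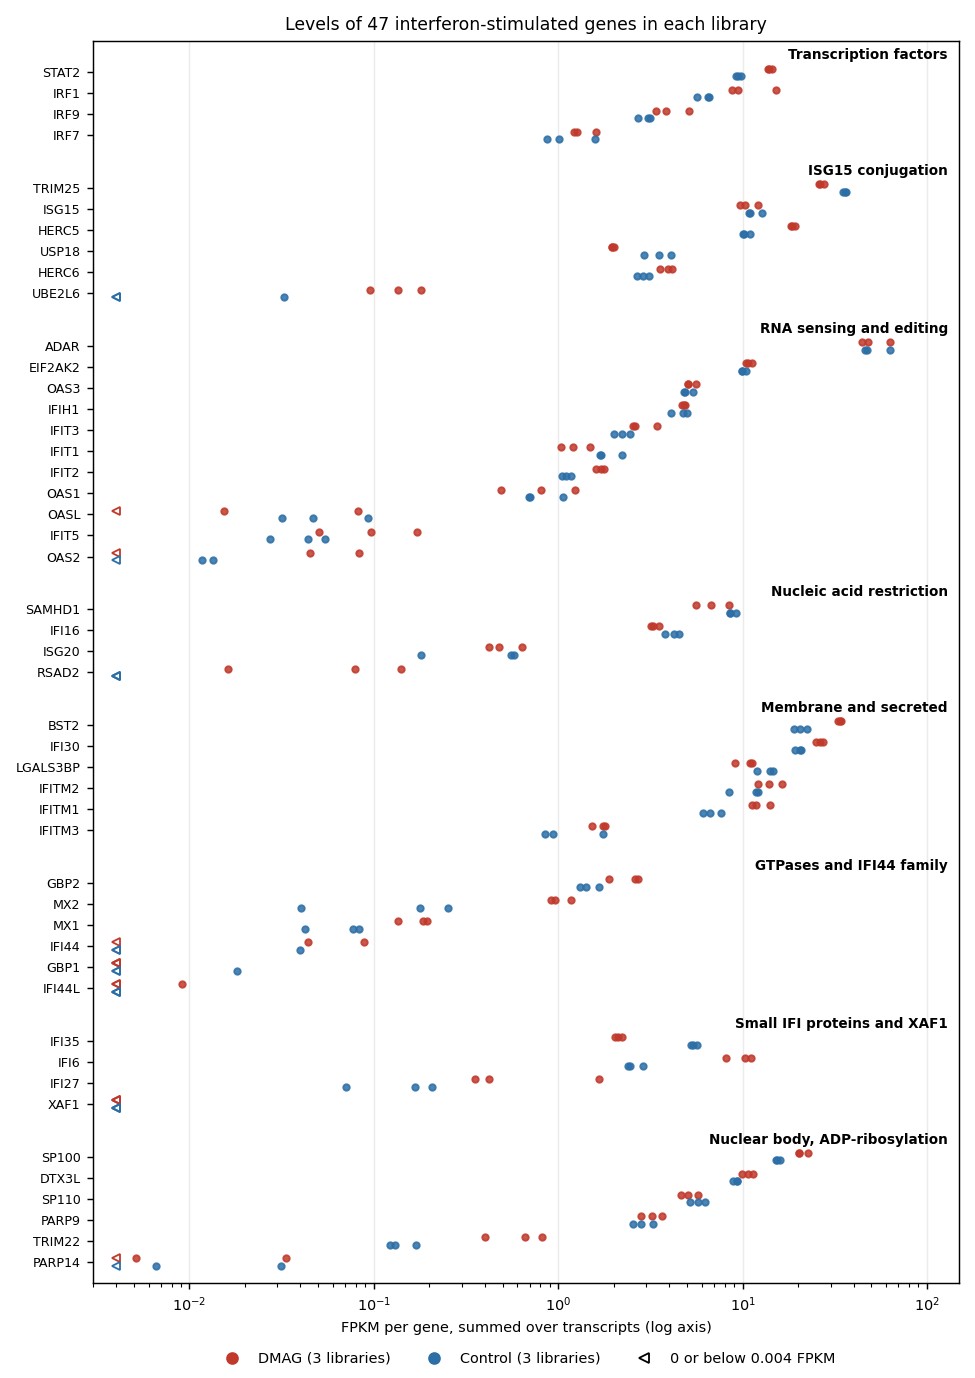
Level of each of the 47 ISGs in every RNA-Seq library, in FPKM on a log axis, with DMAG and control libraries as separate markers and the genes arranged by role. The genes span from values near 0 (XAF1, listed at 0 in all 6 libraries) to ADAR at 44.2 to 62.7 FPKM with DMAG and 46.1 to 62.9 FPKM in controls.

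**Figure D2:**
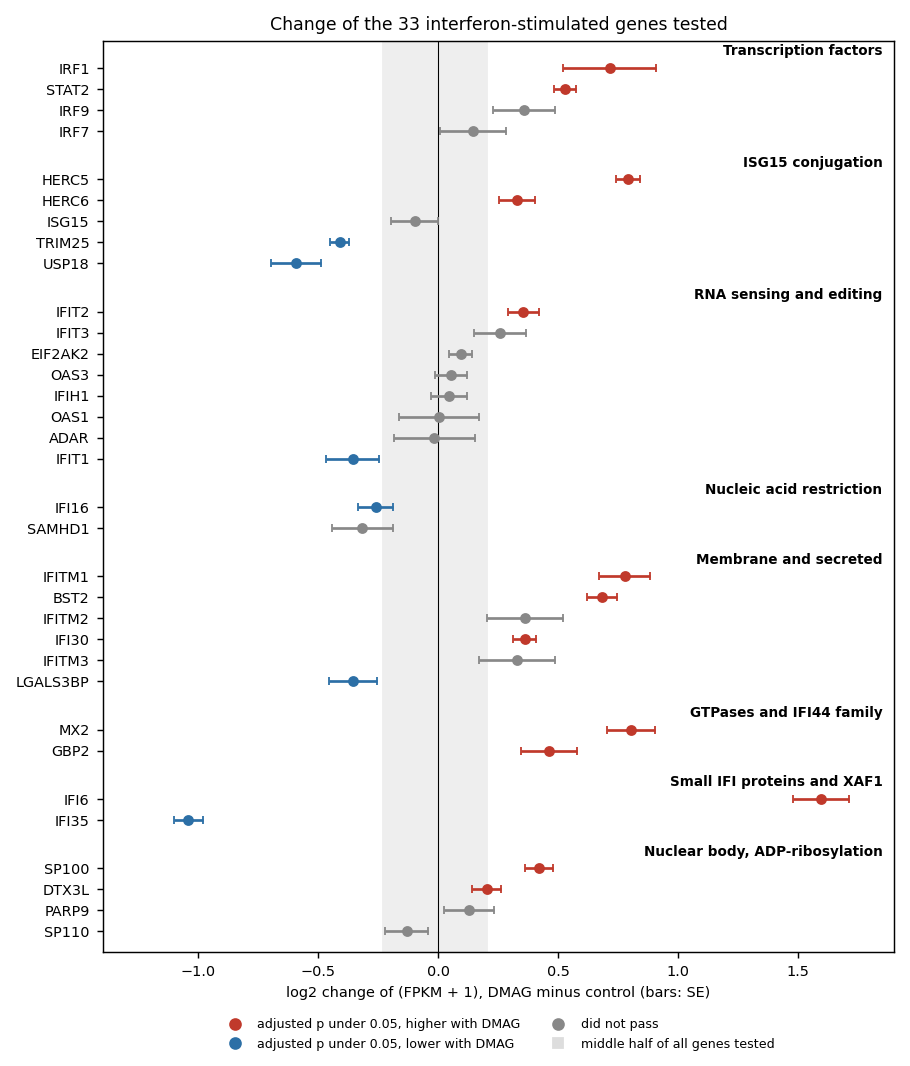
Log2 change of DMAG over control, with standard error, for the 33 ISGs tested, arranged by role and coloured by call. IFI6 rose by 1.59 and IFI35 fell by 1.04 on the log2 scale, and the other 31 changed by less than 1 in either direction.

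The interferon-induced transcription factors rose in part. STAT2, a subunit of ISGF3, had 13.8, 14.0 and 14.4 FPKM with DMAG and 9.75, 9.45 and 9.18 FPKM in controls. The groups did not overlap, and STAT2 rose 1.49-fold (log2 change 0.53, SE 0.0446, adjusted p = 2.9e-04). With only its most abundant transcript the call was lost (log2 change 0.67, adjusted p = 0.14). IRF9, the DNA-binding subunit of ISGF3, had 3.87, 3.41 and 5.12 FPKM with DMAG and 3.15, 3.07 and 2.71 FPKM in controls. All 3 DMAG values were higher, but the difference did not pass (log2 change 0.36, SE 0.130, adjusted p = 0.062), though it passed without DMAG replicate 2 (adjusted p = 0.033) and with libraries scaled to the same total (adjusted p = 0.035). Its most abundant transcript alone had a log2 change of -0.41. IRF7, which drives interferon genes after virus sensing, had 1.22, 1.27 and 1.59 FPKM with DMAG and 0.868, 1.004 and 1.58 FPKM in controls, where the groups overlapped and the change did not pass (adjusted p = 0.43).

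IRF1, a factor induced by interferon gamma, had 8.80, 15.2 and 9.46 FPKM with DMAG and 6.56, 6.48 and 5.66 FPKM in controls. It rose 1.79-fold (log2 change 0.71, SE 0.192, adjusted p = 0.023), and DMAG replicate 2 was far above the other 5 libraries. That height lay in the transcript ENST00000405885, at 10.9 FPKM in that library and at 0 in the other 5. The remaining IRF1 transcripts summed to 8.80, 4.23 and 9.46 FPKM with DMAG and 6.56, 6.48 and 5.66 FPKM in controls, so the groups then overlapped. The call was lost when control replicate 1, 2 or 3 was left out (adjusted p = 0.051 to 0.071), and the most abundant transcript had a log2 change of -0.02.

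ISG15 is a ubiquitin-like protein that is attached to other proteins by the E2 enzyme UBE2L6 and ligases such as HERC5, and is removed by USP18. ISG15 itself had 10.3, 9.69 and 12.1 FPKM with DMAG and 10.8, 12.7 and 10.9 FPKM in controls. These values overlapped and the change did not pass (log2 change -0.10, SE 0.0981, adjusted p = 0.45). HERC5, the main human ISG15 ligase, had 18.3, 19.3 and 18.5 FPKM with DMAG and 10.1, 10.1 and 11.0 FPKM in controls. All DMAG libraries were above all controls, and HERC5 rose 1.80-fold (log2 change 0.79, SE 0.04996, adjusted p = 1.1e-04). HERC6, its relative of the same HERC family, had 4.17, 3.94 and 3.56 FPKM with DMAG and 2.69, 3.10 and 2.90 FPKM in controls, a rise of 1.34-fold without overlap (log2 change 0.33, SE 0.0750, adjusted p = 0.013). The most abundant HERC6 transcript alone did not pass (log2 change 0.57, adjusted p = 0.15).

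USP18, the ISG15 protease that also blocks the interferon receptor, had 1.96, 1.96 and 2.00 FPKM with DMAG and 4.11, 2.92 and 3.50 FPKM in controls. The DMAG values lay close together below all controls, and USP18 was 1.78-fold lower (log2 change -0.59, SE 0.103, adjusted p = 0.0044). TRIM25, the ubiquitin ligase that activates RIG-I, had 25.9, 26.4 and 27.6 FPKM with DMAG and 36.4, 34.9 and 35.8 FPKM in controls. It was 1.34-fold lower without overlap (log2 change -0.41, SE 0.0393, adjusted p = 4.3e-04). UBE2L6 was below the level tested, with 0.0955, 0.181 and 0.135 FPKM with DMAG and 0.0328, 0 and 0 FPKM in controls. Of the 6 genes of this group, 2 rose, 2 fell, 1 did not pass and 1 was not tested.

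Among the RNA sensors and editors, 1 gene rose, 1 fell, 6 did not pass and 3 were not tested, of 11. IFIT2, which binds AU-rich RNA, had 1.6, 1.70 and 1.76 FPKM with DMAG and 1.18, 1.10 and 1.04 FPKM in controls. The groups did not overlap, and IFIT2 rose 1.53-fold (log2 change 0.35, SE 0.0649, adjusted p = 0.0054), but not with only its most abundant transcript (adjusted p = 0.14). IFIT1, which binds RNA whose cap lacks the methyl marks of host RNA, had 1.48, 1.20 and 1.03 FPKM with DMAG and 1.70, 1.69 and 2.21 FPKM in controls. It was 1.51-fold lower (log2 change -0.36, SE 0.111, adjusted p = 0.038), and the call was lost without DMAG replicate 2 or 3 or any control replicate (adjusted p = 0.056 to 0.10). It was lost too with libraries scaled to the same total (adjusted p = 0.067), the most abundant transcript (adjusted p = 0.084) or no filter on low values (adjusted p = 0.055). IFIT1 and IFIT2 lie in the same gene cluster, and IFIT3 of that cluster had higher values in all 3 DMAG libraries but did not pass (adjusted p = 0.095), except with libraries scaled to the same total (adjusted p = 0.043).

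ADAR, the enzyme that edits adenosine to inosine in double-stranded RNA, had the highest mean FPKM of the 47 ISGs in either group, at 47.7, 44.2 and 62.7 FPKM with DMAG and 47.3, 46.1 and 62.9 FPKM in controls. Replicate 3 was high in each group and the groups overlapped (log2 change -0.02, SE 0.168, adjusted p = 0.94). EIF2AK2, the RNA-activated kinase PKR, had 11.3, 10.7 and 10.5 FPKM with DMAG and 9.95, 10.4 and 9.92 FPKM in controls. The DMAG values were all higher, but the change did not pass (log2 change 0.09, SE 0.0482, adjusted p = 0.16), except with libraries scaled to the same total (adjusted p = 0.023). The RNA sensor IFIH1, OAS1 and OAS3 had overlapping groups and did not pass. With only the most abundant transcript of each gene, OAS3 passed (log2 change 0.27, adjusted p = 0.034).

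The membrane and secreted group held 3 rises, 1 fall and 2 genes that did not pass. BST2 (tetherin), which holds budding viruses at the cell surface, had 33.6, 32.7 and 34.4 FPKM with DMAG and 19.01, 22.3 and 20.5 FPKM in controls. All DMAG libraries exceeded all controls, and BST2 rose 1.63-fold (log2 change 0.68, SE 0.0610, adjusted p = 3.4e-04). IFITM1, a membrane protein that impedes virus entry, had 14.1, 11.9 and 11.2 FPKM with DMAG and 6.12, 6.68 and 7.64 FPKM in controls. It rose 1.82-fold without overlap (log2 change 0.78, SE 0.107, adjusted p = 0.0018). IFI30, a lysosomal thiol reductase that helps present antigens, had 25, 26.2 and 27.2 FPKM with DMAG and 20.4, 20.8 and 19.2 FPKM in controls, and rose 1.296-fold without overlap (log2 change 0.36, SE 0.0494, adjusted p = 0.0018).

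IFITM2 and IFITM3 are close paralogs of IFITM1, and reads shared between the 3 genes may have been split by the authors' counting, so each value is uncertain to that extent. IFITM2 had 16.3, 13.9 and 12.1 FPKM with DMAG and 12.1, 8.47 and 11.9 FPKM in controls, with a log2 change of 0.36 that did not pass (SE 0.157, adjusted p = 0.10). IFITM3 had 1.53, 1.80 and 1.75 FPKM with DMAG and 1.75, 0.936 and 0.848 FPKM in controls, where control replicate 1 lay among the DMAG values. Its change did not pass (adjusted p = 0.14), though it passed without control replicate 1 (adjusted p = 0.0077). LGALS3BP, a secreted glycoprotein that binds galectin-3, had 11.2, 9.11 and 10.9 FPKM with DMAG and 14.6, 14.2 and 12.04 FPKM in controls. It was 1.31-fold lower (log2 change -0.36, SE 0.102, adjusted p = 0.029), and the call was lost without DMAG replicate 2, control replicate 1 or control replicate 2 (adjusted p = 0.067 to 0.083) and with libraries scaled to the same total (adjusted p = 0.085).

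Both small interferon-induced proteins that were tested changed by more than 1 on the log2 scale, in opposite directions. IFI6, an interferon-induced mitochondrial protein that restrains cell death, had 11.1, 10.3 and 8.16 FPKM with DMAG and 2.44, 2.89 and 2.39 FPKM in controls. Each DMAG library was above every control, and IFI6 rose 3.82-fold (log2 change 1.59, SE 0.118, adjusted p = 1.8e-04). IFI35, a cytoplasmic leucine zipper protein that binds NMI, had 2.02, 2.22 and 2.12 FPKM with DMAG and 5.66, 5.24 and 5.39 FPKM in controls. It was 2.56-fold lower without overlap (log2 change -1.04, SE 0.0589, adjusted p = 8.2e-05). IFI27, a gene strongly induced by type I interferon, was below the level tested and had 0.352, 0.423 and 1.67 FPKM with DMAG, the highest in the globin-bearing DMAG replicate 3, and 0.207, 0.167 and 0.0707 FPKM in controls.

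Of the nuclear body and ADP-ribosylation genes, 2 rose, 2 did not pass and 2 were not tested. SP100, a component of PML nuclear bodies, had 20.3, 22.8 and 20.3 FPKM with DMAG and 15.4, 16 and 15.1 FPKM in controls, and rose 1.36-fold without overlap (log2 change 0.42, SE 0.0573, adjusted p = 0.0017). Its most abundant transcript alone did not pass (log2 change 0.38, adjusted p = 0.22). DTX3L, a ubiquitin ligase that acts with PARP9, had 9.94, 10.8 and 11.4 FPKM with DMAG and 9.28, 8.89 and 9.29 FPKM in controls. It rose 1.17-fold (log2 change 0.20, SE 0.0590, adjusted p = 0.032), a call lost without DMAG replicate 2 or 3 or any control replicate (adjusted p = 0.062 to 0.091). PARP9 itself had 3.22, 3.65 and 2.82 FPKM with DMAG and 2.54, 2.81 and 3.26 FPKM in controls, which overlapped and did not pass (log2 change 0.13, SE 0.104, adjusted p = 0.35). SP110, a relative of SP100, also overlapped and did not pass (adjusted p = 0.27).

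The GTPases were low. GBP2, a guanylate-binding protein, had 2.72, 1.895 and 2.60 FPKM with DMAG and 1.31, 1.41 and 1.67 FPKM in controls. It rose 1.64-fold (log2 change 0.46, SE 0.117, adjusted p = 0.019), and the call was lost without DMAG replicate 1, DMAG replicate 3, control replicate 1 or control replicate 2 (adjusted p = 0.056 to 0.060). MX2, which restricts HIV, had 0.958, 0.920 and 1.18 FPKM with DMAG and 0.0401, 0.254 and 0.178 FPKM in controls. It reached the level tested only through the DMAG libraries, so a difference was built into its selection (log2 change 0.80, SE 0.1001, adjusted p = 0.0012), and without DMAG replicate 3 it was below that level. MX1, its influenza-restricting relative, was not tested and had 0.185, 0.136 and 0.195 FPKM with DMAG and 0.0827, 0.0423 and 0.0776 FPKM in controls.

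In the restriction group, IFI16 (a nuclear DNA sensor) had 3.50, 3.28 and 3.18 FPKM with DMAG and 4.51, 3.81 and 4.24 FPKM in controls. It was 1.26-fold lower (log2 change -0.26, SE 0.0725, adjusted p = 0.026), and the call was lost without DMAG replicate 2 or 3 or control replicate 1 or 3 (adjusted p = 0.070 to 0.074). It was lost as well with libraries scaled to the same total (log2 change -0.18, adjusted p = 0.098) and with no filter on low values (adjusted p = 0.0505). SAMHD1, which depletes nucleotides, had 5.62, 6.78 and 8.40 FPKM with DMAG and 9.24, 8.53 and 8.59 FPKM in controls. All DMAG values were lower but the change did not pass (adjusted p = 0.084), though it passed without DMAG replicate 3 (adjusted p = 0.014).

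**Figure D3:**
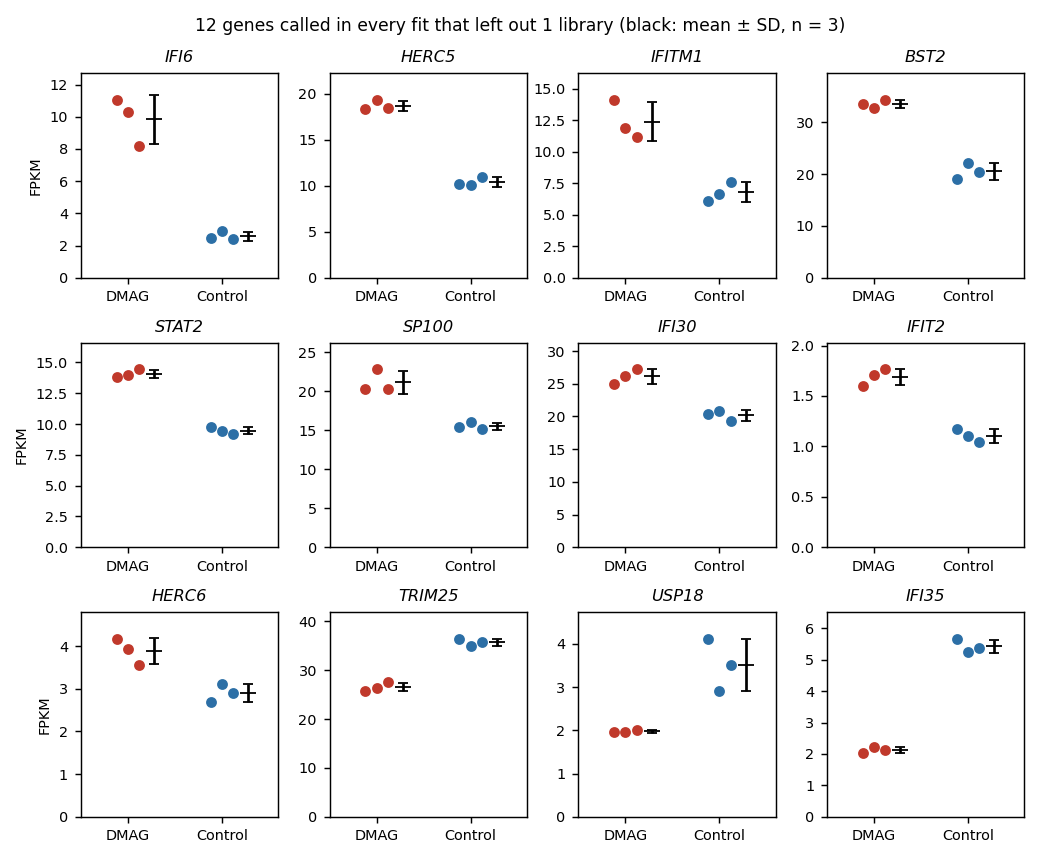
FPKM per library of the 12 ISGs whose call held whichever library was left out, 1 panel per gene, DMAG libraries left of controls. In each panel the 3 DMAG points lie on 1 side of the 3 control points, from IFIT2 at 1.6 to 1.76 FPKM with DMAG and 1.04 to 1.18 FPKM in controls to TRIM25 at 25.9 to 27.6 FPKM with DMAG and 34.9 to 36.4 FPKM in controls.

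The other 14 ISGs were below the level tested. These were GBP1, IFI27, IFI44, IFI44L, IFIT5, ISG20, MX1, OAS2, OASL, PARP14, RSAD2, TRIM22, UBE2L6 and XAF1, and among the 47 ISGs 11 never exceeded 0.2 FPKM in any library. TRIM22, an antiviral ubiquitin ligase, had 0.662, 0.820 and 0.402 FPKM with DMAG and 0.131, 0.169 and 0.123 FPKM in controls. RSAD2 (viperin), which makes a chain-terminating nucleotide, had 0.0788, 0.0161 and 0.140 FPKM with DMAG and was listed at 0 in controls. With no filter on low values, TRIM22 (adjusted p = 0.010), MX1 (adjusted p = 0.013) and UBE2L6 (adjusted p = 0.0093) were called higher with DMAG. An ISG at 0 or near it in FPKM may be a failed estimate, and none of these levels shows that a gene was silent.

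By transcript, 212 transcripts belonged to ISGs, 59 were tested, and 6 rose and 3 fell, over 8 genes. The background among 26969 transcripts tested was 4.58% higher and 5.70% lower. Without DMAG replicate 3, 3 of 60 ISG transcripts rose and 1 fell, and 737 rose and 1022 fell of all 26881 transcripts tested. Without control replicate 1, 3 of 61 rose and 1 fell, and 850 rose and 1086 fell of all 26809. Without control replicate 3, 2 of 61 rose and 3 fell, and 668 rose and 898 fell of all 26918. Both tested IFI6 transcripts rose, ENST00000361157 and ENST00000362020, and so did single transcripts of BST2, HERC5, IFI30 and IFITM1. Transcripts of IFI16, LGALS3BP and TRIM25 fell. Of LGALS3BP, ENST00000262776 had 6.99, 8.34 and 7.27 FPKM with DMAG and 12.01, 13.0 and 11.2 FPKM in controls (log2 change -0.62, SE 0.0920, adjusted p = 0.017).

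To show what lies in front of these genes, promoter windows were read from the RefSeq table (build GRCh38.p14, 250 bases before to 50 after each start). Windows were found for 38 of the 47 ISGs, 52 windows in all. Sequences of 200 bases before the start are printed for the genes that differ in response, 5′ to 3′ on the gene's strand, with capitals marking a match to the ISRE core (the letters GAAA, any 2 bases, GAAA, or on the opposite strand TTTC, any 2 bases, TTTC) or to GAS (TTCNNNGAA, the same on both strands). IFI6 (chr1:27672193-27672392, minus strand), HERC5 (chr4:88456919-88457118, plus strand) and BST2 (chr19:17405631-17405830, minus strand) rose, IFIT1 (chr10:89392423-89392622, plus strand) and IFI35 (chr17:43006584-43006783, plus strand) fell, and ISG15 (chr1:1013297-1013496, plus strand) did not pass.
IFI6: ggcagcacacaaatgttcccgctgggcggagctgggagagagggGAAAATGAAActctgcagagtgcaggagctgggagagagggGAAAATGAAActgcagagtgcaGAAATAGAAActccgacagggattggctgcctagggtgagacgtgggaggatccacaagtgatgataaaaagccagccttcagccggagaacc
HERC5: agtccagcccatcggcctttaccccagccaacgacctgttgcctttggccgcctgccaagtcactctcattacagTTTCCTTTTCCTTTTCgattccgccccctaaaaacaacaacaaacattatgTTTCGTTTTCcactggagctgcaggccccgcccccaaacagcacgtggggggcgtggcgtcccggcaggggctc
BST2: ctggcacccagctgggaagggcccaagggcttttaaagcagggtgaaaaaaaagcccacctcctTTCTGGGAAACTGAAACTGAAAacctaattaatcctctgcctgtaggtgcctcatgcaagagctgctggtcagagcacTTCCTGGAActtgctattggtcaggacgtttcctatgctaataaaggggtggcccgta
IFIT1: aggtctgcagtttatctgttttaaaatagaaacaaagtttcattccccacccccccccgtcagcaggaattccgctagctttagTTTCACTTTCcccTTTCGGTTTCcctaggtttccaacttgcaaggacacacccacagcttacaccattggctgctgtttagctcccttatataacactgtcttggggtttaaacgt
IFI35: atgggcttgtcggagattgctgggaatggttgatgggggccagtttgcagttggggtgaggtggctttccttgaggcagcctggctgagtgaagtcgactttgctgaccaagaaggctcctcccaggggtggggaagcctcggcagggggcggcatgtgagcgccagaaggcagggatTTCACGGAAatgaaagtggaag
ISG15: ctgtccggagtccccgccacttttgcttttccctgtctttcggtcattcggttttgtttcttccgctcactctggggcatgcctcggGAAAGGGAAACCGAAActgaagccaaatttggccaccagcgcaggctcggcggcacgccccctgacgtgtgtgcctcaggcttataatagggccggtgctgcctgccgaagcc

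The ISRE core stood in 27 of the 52 ISG windows, for 23 of 38 genes, against 3.57% of all 35116 windows. It stood in front of 5 of 10 genes that rose, 2 of 5 that fell, 7 of 12 that did not pass and 9 of 11 that were not tested. GAS stood in 11 ISG windows, for 10 genes (3, 1, 3 and 3 in the same order), against 7.66% of all windows. IFIT1, which fell, has ISRE core matches in its printed bases, as ISG15 and IFI6 do. PARP9 and DTX3L are divergent neighbours whose windows share an ISRE match at chr3:122564332-122564341. Matches of the 2 motifs overlap in the BST2 window and in windows of IFI27, among others. A match is a description of letters in a window and not a binding site.

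**Figure D4:**
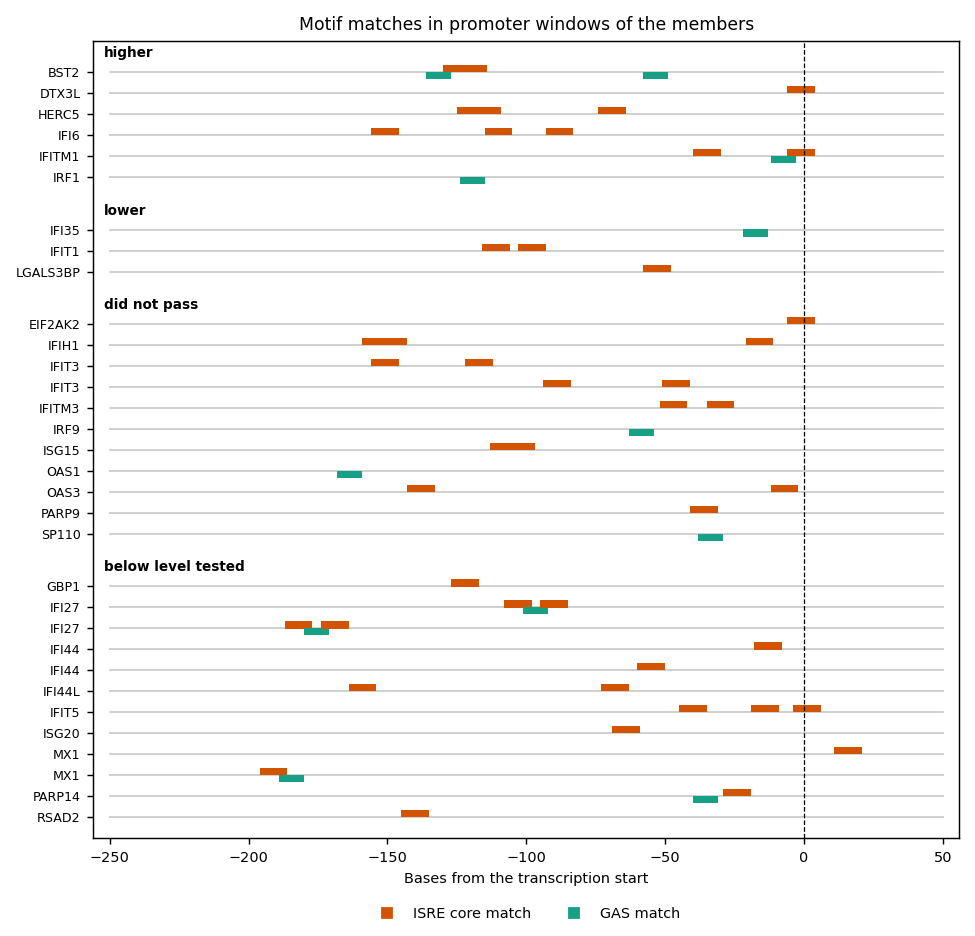
Positions of ISRE core and GAS matches relative to the gene start, in bases, in those promoter windows that hold a match, 1 line per window (windows without a match are not drawn), grouped by call. Matches are present in each call group, including 9 of 11 genes that were not tested.

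The interferons themselves were nearly undetected. Of 21 interferon ligand genes with a row (of 22 listed), 17 were listed at 0 in all 6 libraries, and the highest value of any was 0.115 FPKM. Among receptors and kinases, 6 of 10 tested rose and 1 fell. The largest rises were STAT3 (1.59-fold, adjusted p = 1.6e-04), IFNGR2 (a chain of the interferon gamma receptor, 1.55-fold, adjusted p = 0.0013) and JAK1 (1.25-fold, adjusted p = 0.0024). JAK2 fell 1.20-fold (adjusted p = 0.027), a call lost without DMAG replicate 1 or 3 or control replicate 2 or 3 (adjusted p = 0.076 to 0.079). It was lost with libraries scaled to the same total (log2 change -0.14, adjusted p = 0.096), and the most abundant JAK2 transcript had a log2 change of -0.0097 (adjusted p = 0.97).

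Of 12 sensors and adaptors tested, 4 rose and 2 fell. TICAM1, 1 of the 4, reached the level tested only through its DMAG values (means of 0.894 FPKM with DMAG and 0.435 FPKM in controls). A difference was thus built into its selection. TMEM173 (STING, the adaptor of cytosolic DNA sensing) rose 2.08-fold (adjusted p = 0.0017) and MAVS, the adaptor of RNA sensing, 1.18-fold (adjusted p = 0.0038), though MAVS did not pass with only its most abundant transcript (adjusted p = 0.066). IRF5, a factor of Toll-like receptor signalling, rose 2.06-fold (adjusted p = 0.010), a call lost with only its most abundant transcript (adjusted p = 0.45). IKBKE, a kinase that activates IRF3, was 1.601-fold lower (adjusted p = 1.4e-04). MYD88, the adaptor of Toll-like receptors, was 1.53-fold lower (adjusted p = 0.037). That call did not hold without DMAG replicate 1, 2 or 3 or control replicate 1 or 3 (adjusted p = 0.062 to 0.10), with libraries scaled to the same total (adjusted p = 0.070) or with its most abundant transcript (adjusted p = 0.30). Of 11 feedback inhibitors tested, 1 rose and 3 fell, among them PTPN6, a phosphatase that dampens JAK signalling, 1.46-fold (adjusted p = 2.3e-04) and TRIM28, a repressor, 1.42-fold (adjusted p = 5.5e-04). The direction of PTPN6 turned with only its most abundant transcript (log2 change 1.51, adjusted p = 0.33). The call of PTPN1, which rose, was lost whichever library was left out (adjusted p = 0.057 to 0.11). That of PTPN11, which fell, was lost with libraries scaled to the same total (log2 change -0.027, adjusted p = 0.51). Of 4 other regulatory factors tested, 3 rose and 1 fell, with IRF2 up 1.40-fold (adjusted p = 9.8e-04). The call of IRF2BP2, which rose, was lost without DMAG replicate 1 or 2 or control replicate 2 or 3 (adjusted p = 0.057 to 0.061). That of IRF2BP1, which fell, was lost without DMAG replicate 1 or 3 or control replicate 1 (adjusted p = 0.057 to 0.059). It was lost too with libraries scaled to the same total (adjusted p = 0.10). Of 49 further ISGs outside the 47, 21 rose and 9 fell. SLFN5 (7.10-fold), TNFSF10 (the death ligand TRAIL, 2.29-fold) and HELZ2 (2.98-fold) rose, and LAP3 (1.44-fold), UNC93B1 (1.31-fold) and TRIM14 (1.18-fold) fell. Over all these lists, 35 genes rose, TICAM1 among them, and 15 fell of 85 tested, where 22.4% and 26.1% of all genes did. With libraries scaled to the same total, 38 rose and 7 fell, where 3221 rose and 1862 fell of all 10392 genes tested.

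**Figure D5:**
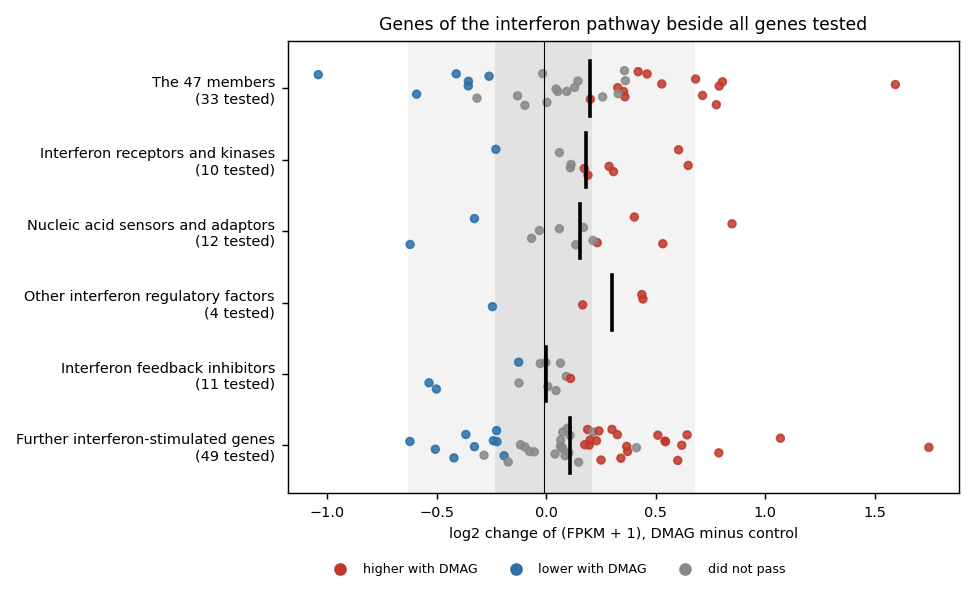
Log2 change of DMAG over control for the tested genes of each interferon list, beside the range from the 5th to the 95th percentile (-0.63 to 0.68) and the interquartile range (-0.23 to 0.20) of all genes tested. SLFN5 of the further ISGs is the highest point, at 1.75.

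Myeloid markers moved between the same libraries. The summed level of 5 granulocyte-monocyte progenitor genes was 1057 to 1268 FPKM with DMAG and 2041 to 2211 FPKM in controls, and of these MPO, CTSG, PRTN3 and ELANE fell and AZU1 rose. The summed level of 10 monocyte genes was 595 to 701 FPKM with DMAG and 241 to 254 FPKM in controls. Of 6 tested, LYZ, TLR4, S100A8, S100A9 and ITGAM rose and FCGR1A, the Fc receptor that interferon gamma induces, fell. The defining markers CD14 and CSF1R stayed under 1 FPKM in all libraries. The 6 plasmacytoid dendritic cell genes summed to 2.48 to 3.59 FPKM with DMAG and 2.06 to 3.32 FPKM in controls, with 5 of 6 under 1 FPKM. The 5 B cell genes summed to 7.96 to 8.80 FPKM with DMAG and 10.95 to 12.04 FPKM in controls, and those of fibroblasts to 0.0884 to 0.151 FPKM with DMAG and 0.881 to 0.944 FPKM in controls. Those of T cells stayed at 0.244 FPKM or less. The part of these marker changes in the ISG results was not tested, and in these bulk libraries fewer cells of a type and less RNA per cell cannot be told apart.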

How the data were processed

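Levels came from 6 RNA-Seq libraries, 3 of DMAG-treated and 3 of control cells labelled HEL. The authors deposited FPKM per transcript; HISAT2 2.0.4, Bowtie, StringTie 1.3.3 and the build GRCh38 are named per the submitters' processing notes, with no roles given. Per the labels' protocols, ribosomal RNA was depleted and a dUTP step was used. How strand was counted is not given in the sources used here. Transcripts of a gene were added up. The 10394 genes whose mean over the 6 libraries reached 0.5 FPKM entered limma 3.58.1 as log2(FPKM + 1) (R 4.3.3, empirical Bayes with a mean trend, two-sided, Benjamini-Hochberg over all genes, called under 0.05). Transcripts were tested the same way. Log2 changes on this scale understate the change of low genes. Only the gene-level fit was tested on simulated data, with normally distributed noise and changes planted only in genes above a set level. The transcript fits and the reading of promoters were not tested in this way. Named genes were those called, without overlap and at least 1 FPKM in the higher group, plus 15 named whatever their result, and of the other lists up to 3 per direction. The gene list, the pathway lists and the markers were chosen with earlier results of these data known. Circular RNA, unannotated lncRNA and miRNA tables were not used here. Alternatives were another pseudocount, filter and scaling, no mean trend, the most abundant transcript, the replicate number as a block, and fits without 1 library. Results for some genes are not reported here.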

Additional observations from a re-analysis of the deposited data

How the results depend on the processing

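Leaving out each library in turn gave 10 to 13 ISGs higher and 3 to 6 lower, 4224 to 4593 of all genes, 40 to 43 of the other interferon pathway genes and 4 to 7 ISG transcripts. With only the most abundant transcript of each gene, 8 ISGs were called higher and 5 lower of 30 tested. In that fit 1586 of all 10157 genes were called higher and 1768 lower, 3354 in all, and 33 other pathway genes were called. With libraries scaled to the same total, 16 ISGs were higher and 3 lower, where 3221 of all genes were higher and 1862 lower. With the replicate number as a block, 4491 of all genes, 12 ISGs higher, 4 lower, 40 pathway genes and 0 ISG transcripts were called by limma (16 of 59 transcripts had an unadjusted p under 0.05), and DTX3L, IFIT1 and LGALS3BP lost their calls. Over all genes tested, deviations of same-numbered libraries from their group means correlated at -0.00480 to 0.0426. With 3 libraries per group, this cannot show whether same-numbered libraries shared a culture or a batch. At the level of transcripts that block left 200 calls among all 26969 transcripts. The log2 change of ADAR turned to 0.0026 with libraries scaled to the same median, to 0.082 with the same total and to between -0.16 and 0.12 with libraries left out. With the most abundant transcript, IRF1 turned to -0.017, IRF9 to -0.41 and PTPN6 to 1.51. In each case the cause was not tested. The alternatives gave 696 values for 50 genes, which are not all of the genes tested. Of these values, 611 kept their direction and their side of the threshold, 73 lost the call, 4 gained it and 8 reversed. Among all ISGs tested, EIF2AK2, IFIT3, IFITM3, IRF9, OAS3 and SAMHD1 gained a call under an alternative. The unknown depth limits what a value near 0 FPKM shows.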

Other observations

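Of 11 interferon-linked long non-coding RNAs listed, 3 had a row in the annotated lncRNA table, and no test was made. NEAT1, the scaffold of paraspeckles, summed to 221, 226 and 220 FPKM with DMAG and 162, 160 and 160 FPKM in controls. The groups did not overlap in this sum or in its transcript ENST00000646243.1 (means of 172 FPKM with DMAG and 111 FPKM in controls). They overlapped in ENST00000612303.2 (50.5 and 50.1 FPKM). The share of all lncRNAs without overlap is not given here. BISPR, the divergent neighbour of BST2, had 5.70, 3.40 and 5.49 FPKM with DMAG and 3.80, 3.85 and 2.14 FPKM in controls, which overlapped. THRIL, a lncRNA linked to TNF, had 0.715, 0.598 and 1.13 FPKM with DMAG and 1.82, 1.54 and 1.24 FPKM in controls, all DMAG values being lower.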
